A study of Caenorhabditis elegans with 2 samples.

Results

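The 10 genes described here encode proteins of the centriole and of the pericentriolar material (PCM) that surrounds it in the nematode Caenorhabditis elegans: zyg-1, sas-4, sas-5, sas-6, sas-7, spd-2, spd-5, tac-1, zyg-9 and gip-1. They were listed by name among 19973 protein-coding genes of the 6 nuclear chromosomes, and all 10 were found in the annotation. Peaks came from chromatin immunoprecipitation followed by sequencing of DPL-1, the worm DP protein that pairs with E2F transcription factors. Both biological replicates were mixed-sex larvae of strain OP105, taken whole at the L4 stage. This strain carries the allele unc119(ed3) and the transgene wgIs105, in which dpl-1 is fused to TY1, EGFP and FLAG tags beside unc119. The labels give the target as dpl-1 in one field and as eGFP-dpl-1 in another, and they do not name the promoter that drives the transgene. They give no untagged group and no second condition, so peaks are described and no difference between conditions could be tested. Whole animals were used, so a peak cannot be assigned to a tissue.

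Centrioles duplicate once per cell cycle. In the worm, SAS-7 and SPD-2 act first and bring the kinase ZYG-1 to the parent centriole, SAS-5 and SAS-6 then form the core of the new one, and SAS-4 is needed for its wall of microtubules. SPD-5 builds the PCM scaffold together with SPD-2, and the scaffold holds gamma-tubulin complexes and the microtubule-stabilising pair ZYG-9 and TAC-1. DPL-1 and its E2F partner EFL-1 bind promoters of many cell cycle genes, and genetic work in embryos has linked them to centriole duplication and to SAS-6 levels.

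DPL-1 peaks stood near 9 of the 10 genes. The IDR list holds peaks that passed an irreproducible discovery rate threshold and was derived from both replicates. Each of these 9 had at least 1 IDR summit within 1000 bp before or 200 bp after one of its annotated transcript starts. In the same window 16.4% of all protein-coding genes had such a summit (3266 of 19973). The exception was gip-1. The 9 genes held 10 IDR summits, since zyg-9 had a pair. With the window cut to 500 bp upstream, 6 of the 10 genes kept a summit, against 13.5% of all genes, and sas-4, spd-5 and tac-1 lost theirs. The same 6 kept one within 200 bp upstream and 100 bp downstream, against 7.61% of all genes. The relaxed pooled list, which holds weak peaks as well, had a summit in the windows of all 10 genes, but also in those of 44% of all genes.

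The lists carry the authors' signal per peak, which is relative to a control alignment. Its scale is not given in the labels or files. The 3369 IDR peaks had signals of 46.4 to 5205 and were the top of the pooled list by signal, and each relaxed list held 30000 rows. Read counts were not given, so the depth of the libraries is unknown. Signals are set against others of the same list, or against the other replicate at a shared peak.

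The strongest peaks were in the windows of sas-4, sas-5 and sas-6, and the weakest in those of sas-7, tac-1 and zyg-9, so genes for centriole assembly stood at both ends of the order. By distance the strongest peak, counted for sas-4, is nearest to another gene, F10E9.11. The pooled signal was 884 at sas-4, 632 at sas-5, 431 at sas-6, 260 at spd-2, 195 at spd-5, 191 at zyg-1, 76.4 at sas-7, 54.6 at tac-1 and 53.6 at the stronger zyg-9 summit. The median over these 9 genes was 195, and over all 3266 protein-coding genes with an IDR summit it was 141 (quartiles 79.9 and 296). The order at the low end was not separated by the replicates, because tac-1 was above zyg-9 in replicate 1 and below it in replicate 2. The peaks of the 6 strongest genes were 202 to 294 bp wide, whereas those of sas-7, tac-1 and zyg-9 had the usual width of the pooled list, 344 bp.

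**Figure D1:**
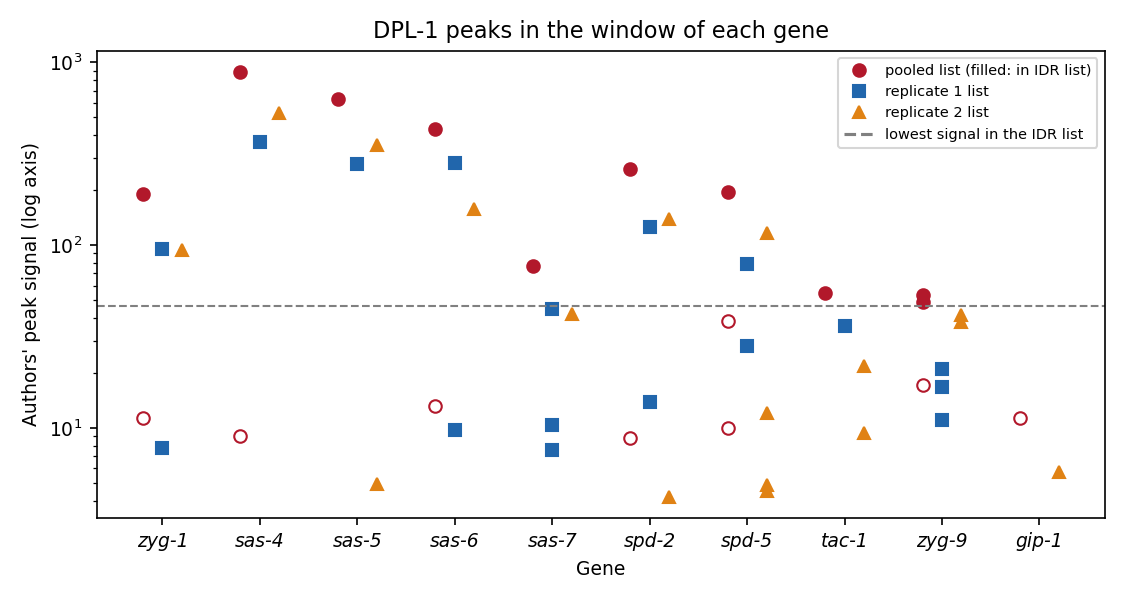
The authors' signal (log axis) of every summit in the window of each gene, in the pooled list (circles, filled where the peak is in the IDR list), replicate 1 (squares) and replicate 2 (triangles). The dashed line is the lowest IDR signal, 46.4, which applies to the pooled list and not to the replicates. The highest point is sas-4 at 884, and the only pooled summit of gip-1 is far under the line.

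Summit sequences of 4 genes of the centriole duplication pathway are shown because they differ in the elements tied to DPL-1 complexes. Each runs 5′ to 3′ in the direction of the named gene, from the RefSeq WBcel235 genome (ce11), up to 100 bases either side of the summit and shorter where an annotated UTR begins. Capitals mark E2F-type words (TTCCCGC, with its variants TTCGCGC, also TTGCCGC, as well as TTGGCGC) and CHR-type words (TTTGAA or TTCGAA, the element bound by LIN-54 of the DRM complex), on either strand. The stretches are chrIII:8319261-8319409, minus strand, chrV:11610571-11610736, plus strand, chrIV:13788732-13788906, minus strand, and chrII:5649539-5649739, plus strand, in that order.
sas-4: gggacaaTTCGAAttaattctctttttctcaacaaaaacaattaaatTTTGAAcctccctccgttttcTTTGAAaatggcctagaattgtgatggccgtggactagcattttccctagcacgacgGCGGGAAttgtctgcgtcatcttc
sas-5: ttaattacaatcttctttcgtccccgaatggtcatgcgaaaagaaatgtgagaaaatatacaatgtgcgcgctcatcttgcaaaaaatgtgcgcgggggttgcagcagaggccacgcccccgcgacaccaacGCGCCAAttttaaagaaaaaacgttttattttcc
sas-6: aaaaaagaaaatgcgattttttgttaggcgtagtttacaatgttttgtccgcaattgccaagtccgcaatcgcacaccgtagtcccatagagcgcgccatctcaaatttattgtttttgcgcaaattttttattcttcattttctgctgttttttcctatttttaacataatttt
zyg-1: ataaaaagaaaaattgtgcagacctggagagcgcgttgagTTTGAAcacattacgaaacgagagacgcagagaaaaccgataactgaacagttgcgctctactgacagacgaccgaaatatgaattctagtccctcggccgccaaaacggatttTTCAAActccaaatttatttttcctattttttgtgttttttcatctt
The sas-4 stretch holds 3 CHR-type words and then an E2F-type word on the opposite strand. The sas-5 stretch holds an E2F-type word on the opposite strand and no CHR-type word. The zyg-1 stretch holds a CHR-type word on each strand and no E2F-type word, and the sas-6 stretch holds neither.

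ZYG-1 is the Plk4-related kinase that starts duplication. The gene lies at chrII:5649748-5654422 on the plus strand, and its IDR summit at 5649639, which is -109 bp from the only annotated start. The signal was 191 in the pooled list (rank 896 of 3369), 95.2 in replicate 1 and 94.3 in replicate 2. The replicates placed the summit 1 bp apart and gave it nearly the same signal. The summit lies in an exon of the non-coding RNA gene F59E12.14 on the other strand, and in the windows of the oppositely directed genes F59E12.17 and sam-4, at -169 and -353 bp from their starts.

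SAS-5 and SAS-6 form the inner structure on which the new centriole is built, and both genes had peaks among the 842 strongest of the IDR list. At sas-5 (chrV:11610737-11612596, plus strand) the summit at 11610671 was -66 bp from the most upstream of 3 annotated starts. Its signal was 632 in the pooled list (rank 230), 278 in replicate 1 and 353 in replicate 2. This summit was nearer to sas-5 than to the divergent gene piit-1, with the summit at -522 bp from its start. At sas-6 (chrIV:13786945-13788731, minus strand) the summit at 13788827 was -96 bp from the start, with 431 in the pooled list (rank 387), 282 in replicate 1 and 158 in replicate 2. Of the 10 summits this one had the lowest ratio of replicate 2 to replicate 1, 0.561. It lies in a stretch of 175 bp between sas-6 and the divergent gene Y45F10D.7, whose start is the nearer of the pair, with the summit at -80 bp.

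SAS-4, the worm relative of CPAP, is needed to add microtubules to the new centriole, and its window held the strongest of the 10 peaks. The gene lies at chrIII:8314349-8318588 on the minus strand and its summit at 8319309, with a signal of 884 (rank 127), 365 in replicate 1 and 528 in replicate 2. The summit was -721 bp from the sas-4 start, with the gene F10E9.11 between them on the same strand. It stood at -49 bp from the start of F10E9.11, which ends 89 bp before sas-4 begins. F10E9.10 lies 204 bp further upstream, also on the same strand. The peak is thus at the start of F10E9.11 by distance, and the annotation used here does not say whether these genes share a transcript. Beside the sas-4 start itself the pooled list held a summit of only 9.03, 9 bp downstream, near the lowest signal of that list, 8.83.

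SAS-7, which is needed to bring SPD-2 to centrioles, had a weaker peak that no other gene shares. The gene lies at chrIII:10321019-10325675 on the plus strand and its summit at 10320984, -35 bp from the start. The signal was 76.4 in the pooled list (rank 2143), 44.8 in replicate 1 and 41.9 in replicate 2. The replicates agreed on position within 13 bp. The single CHR-type word at this summit is centred 30.5 bases from it in the direction of the gene.

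SPD-2 and SPD-5 carry the PCM, and both genes share a summit with a divergent neighbour. At spd-2 (chrI:8966985-8970081, minus strand) the summit at 8970184 was -103 bp from the start, with 260 in the pooled list (rank 668), 125 in replicate 1 and 139 in replicate 2. It sits almost midway between spd-2 and F32H2.10, at -107 bp from the latter, and in the window of thoc-3, a gene for a THO complex subunit, at -955 bp. Replicate 2 placed the summit at the same base, but replicate 1 placed it 37 bp nearer to spd-2, at -66 bp. At spd-5 (chrI:5171275-5176654, minus strand) the summit at 5176448 had a signal of 195 (rank 876), 79.0 in replicate 1 and 117 in replicate 2. This summit lies in an intron, 206 bp downstream of the more upstream of 2 annotated starts, and counts through the other start, with the summit at -740 bp. It was -381 bp from the start of the divergent nucleoporin gene npp-6. A weaker peak stood -27 bp from that other spd-5 start, with 38.4 in the pooled list, below the IDR minimum of 46.4. That minimum does not apply to the replicates, where the peak had 27.9 in replicate 1 (rank 2950) and 12.1 in replicate 2 (rank 7624). The peak was thus among the 3369 strongest of replicate 1 but not of replicate 2.

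ZYG-9, the worm XMAP215, and its partner TAC-1, of the TACC family, promote microtubule growth from the centrosome, and their peaks were among the 843 weakest of the IDR list. At zyg-9 (chrII:8457818-8464512, plus strand) the summits lay 503 bp apart, at 8457169 and 8457672, which is -649 and -146 bp from the start. The farther one had 53.6 in the pooled list, 20.9 in replicate 1 and 41.4 in replicate 2. The nearer one had 48.5 in the pooled list, 16.7 in replicate 1 and 38.0 in replicate 2. The signal in replicate 2 was 1.98 and 2.27 times that in replicate 1, and replicate 1 alone does not place zyg-9 among its 3369 strongest peaks (ranks 4342 and 6428). The farther summit was -975 bp from the start of F22B5.6, on the other strand, and no other gene shares the nearer one.

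At tac-1 (chrII:14752891-14753877, minus strand) the summit at 14754397 was -520 bp from the start, with 54.6 in the pooled list (rank 2882), 36.2 in replicate 1 and 21.8 in replicate 2. Here replicate 2 was the weaker one (rank 4035), and the replicate summits lay 50 bp apart. The divergent gene Y54E2A.4 starts nearer to this summit, which is at -225 bp from it. No E2F-type or CHR-type word lies within 100 bp of it. Beside the tac-1 start, replicate 2 held a weak summit of 9.37 (rank 10792), 12 bp downstream. Replicate 1 and the pooled list held none there.

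**Figure D2:**
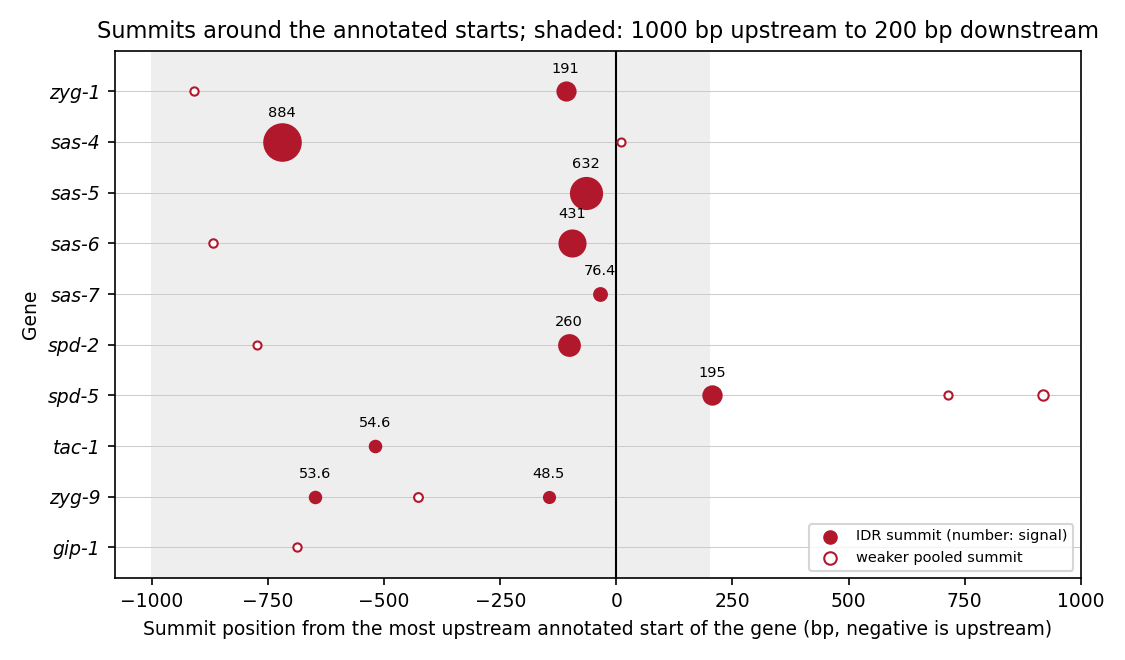
Position of summits relative to the most upstream annotated start of each gene (bp, negative is upstream), with IDR summits filled and labelled with their signal, weaker pooled summits open, and larger symbols for higher signal. IDR summits of zyg-1, sas-5, sas-6, sas-7 and spd-2 lie between -109 and -35 bp, those of sas-4 and tac-1 at -721 and -520 bp, and that of spd-5 at 206 bp.

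GIP-1 is the worm GCP3, a subunit of the gamma-tubulin complex that nucleates microtubules, and its gene was the one of the 10 with no IDR summit. The gene lies at chrIII:2347591-2362056 on the plus strand. In its window the pooled list held a single summit of 11.3 at -688 bp, rank 21809 of 30000, in an exon of phf-5. Replicate 2 held one of 5.75 at -606 bp, 82 bp from the pooled summit, and replicate 1 held none. The neighbour upstream, phf-5, lies on the same strand and ends 261 bp before gip-1, and it too had no IDR summit in its window. Next in the same direction, 349 bp before phf-5, is ppm-1.D, a phosphatase gene, with an IDR summit at -145 bp from its start and a signal of 336 (180 in replicate 1 and 162 in replicate 2). That summit also lies in the window of Y54F10BM.13, on the other strand. It is the nearest of the IDR list to gip-1, at -16164 bp from the gip-1 start.

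Both replicates had a relaxed summit within 100 bp at all 10 IDR summits of these genes. Over the whole IDR list, 3076 of 3369 peaks did. The signal was higher in replicate 2 at 6 of the 10 summits and higher in replicate 1 at 4. The ratio of replicate 2 to replicate 1 ran from 0.561 at sas-6 to 2.27 at the nearer zyg-9 summit, and all 10 ratios fell between the 5th and 95th percentiles of shared IDR peaks, 0.476 and 2.61, whose median was 1.14.

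**Figure D3:**
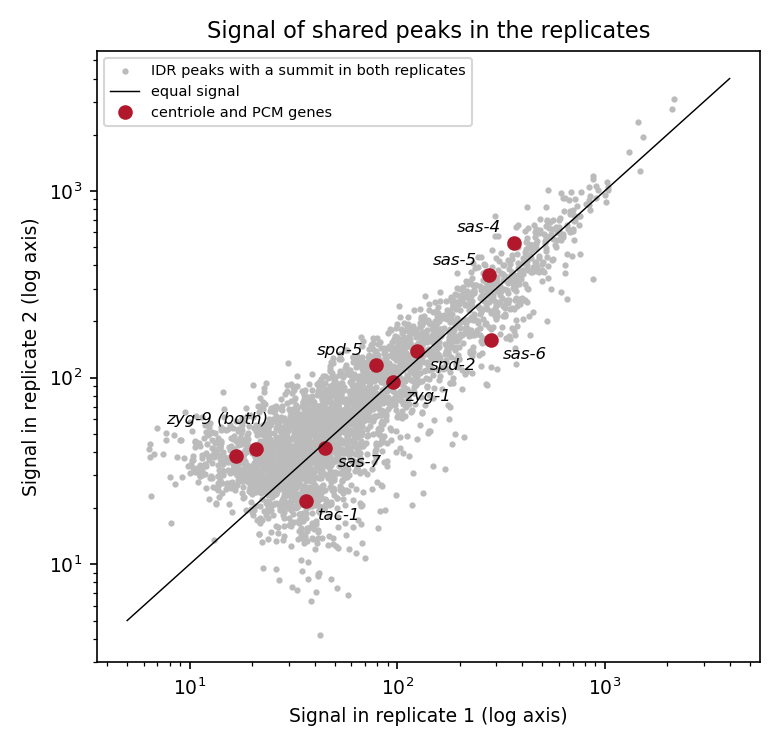
Signal of the IDR peaks with a summit within 100 bp in both replicates (grey), replicate 1 on the x axis and replicate 2 on the y axis, both log axes, with the 10 summits of the centriole and PCM genes in red. The line marks equal signal; sas-6 and tac-1 lie below it and both zyg-9 summits above it.

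Most of these summits are shared. At 8 of the 9 genes the strongest IDR summit also lay in the window of another protein-coding gene, against 56% of all genes with an IDR summit (1830 of 3266). The partner was directed away from the member at zyg-1, sas-5, sas-6, spd-2, spd-5, tac-1 and zyg-9, and in the same direction at sas-4. At zyg-9 the sharing rests on the pooled summit, -975 bp from the start of F22B5.6. The matching summit of either replicate lies in the window of no other gene. Of the 10 summits 8 were intergenic. The nearest protein-coding start belonged to another gene at sas-4, sas-6 and tac-1. Measured from the nearest start whose window holds it (-740 bp at spd-5), the strongest summit had a median position of -109 bp for the 9 genes (quartiles -649 and -96) and of -222 bp for all genes with an IDR summit (quartiles -401 and -124).

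E2F-type words were found at 3 of the 10 summits, within 100 bp on either strand: sas-4, sas-5 and spd-2. They were in 19.9% of all IDR windows of 201 bp, from 33% of the 842 strongest peaks to 11% of the 843 weakest, and in 6.29% of windows of the same length just upstream of all protein-coding genes. All 3 genes are among those 842, and sas-6, the other gene of this set there, has no match. The middles of the 3 words lay 28, 35 and 34 bases from the summit in the direction of the gene. These distances are for sas-4, sas-5 and spd-2 in that order. At spd-2 replicate 1 placed the summit 37 bp nearer to the gene, so the distance there depends on the list used. Over all 670 IDR windows with a match, the nearest lay at a median of 29 bases on either side (quartiles 16 and 47). The side of the match was not counted over these windows. The letters of the words read backwards (CGCCCTT, with its variants CGCGCTT, also CGCCGTT, as well as CGCGGTT) occurred at none of the 10 summits. They were in 12.2% of all IDR windows and in 3.51% of the stretches upstream of all genes. Their share was 17.7% of the 842 strongest IDR peaks and 10.1% of the 843 weakest. Like the E2F-type words, they were thus more frequent in IDR windows than upstream of all genes.

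CHR-type words stood at 7 of the 10 summits, those of zyg-1, sas-4, sas-7, spd-2, spd-5 and both of zyg-9. The share was 48.8% over all IDR windows and 56.2% over stretches of the same length upstream of all genes. It ran from 68.9% of the 842 strongest IDR peaks, which include 4 of the 10 summits, to 38.1% of the 843 weakest, which include 3. Both types together occurred at sas-4 and spd-2 and in 12.7% of IDR windows, and neither occurred at sas-6 and tac-1 and in 44% of IDR windows. The repeat GAGAG, present in 54.1% of IDR windows and 29.6% of the stretches upstream of all genes, was found at 2 of the 10 summits, zyg-1 and sas-4. A match is a stretch of letters and does not show that a factor binds there.

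**Figure D4:**
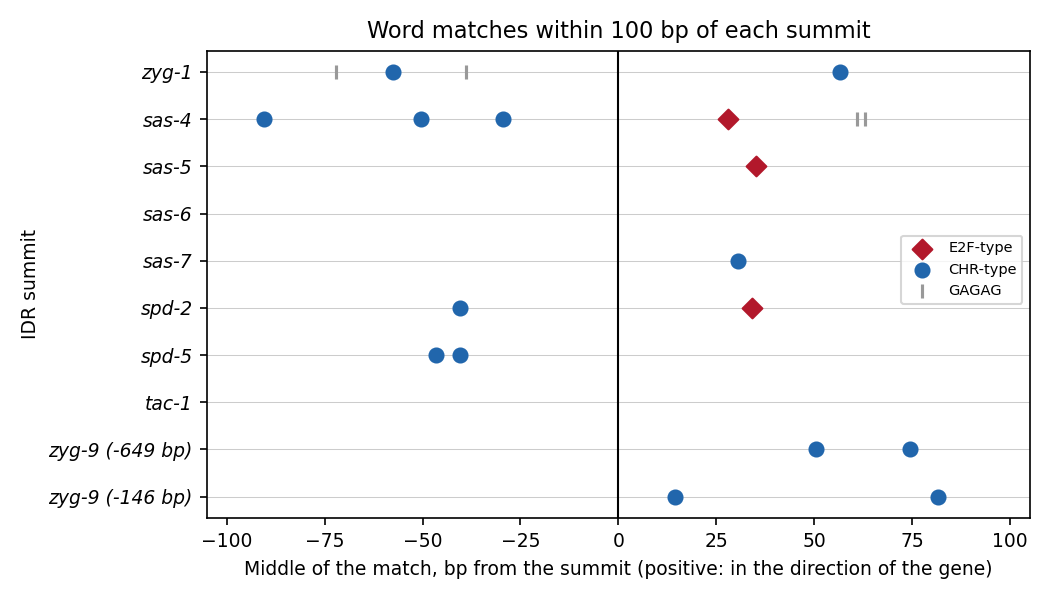
Middle of each word match in bp from the summit (positive in the direction of the gene) for the 10 IDR summits, with E2F-type words as diamonds, CHR-type words as circles and GAGAG as bars. The E2F-type words of sas-4, sas-5 and spd-2 lie 28 to 35 bases on the gene side of the summit, and the rows of sas-6 and tac-1 are empty.

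Of 27 related genes of the centrosome, 17 had an IDR summit in the same window, read against the 16.4% of all protein-coding genes. They comprise 3 of 5 genes of the gamma-tubulin complex and its partners, 7 of 11 other genes of centriole and PCM assembly, and 7 of 11 regulators of ZYG-1 and centriole number. Their median signal was 175, with a range from 72 to 842. With the window cut to 500 bp upstream 12 of the 27 kept a summit, against 13.5%. These were 1 of the 5 gamma-tubulin genes, 7 of the 11 other assembly genes and 4 of the 11 regulators.

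The strongest was szy-20, an RNA-binding regulator that limits centriole assembly, with 842 (481 in replicate 1 and 366 in replicate 2). It was followed by pcmd-1, which anchors the PCM scaffold to the centriole, with 680 (261 and 409 in replicates 1 and 2), and by hyls-1, for a centriole protein needed for cilia, with 632 (373 and 266). These signals are in the range of sas-4 and sas-5. Each of these summits is shared, with C18E9.5, dhhc-7 and hpo-9 in that order. The signal was 357 at rsa-1, for a regulatory subunit of the phosphatase PP2A, and 520 at rsa-2, for the protein that brings it to centrosomes. The rsa-1 summit is shared with clec-87, and the rsa-2 summit, at -16 bp from the start, with no other protein-coding gene. Among the next were atx-2, the worm ataxin-2 gene, with 267, the F-box genes sel-10 with 211 and lin-23 with 172, the Polo kinase gene plk-1 with 181 and the gamma-tubulin gene tbg-1 with 175.

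The strongest atx-2 summit and the tbg-1 and lin-23 summits lie at -626, -839 and -927 bp from the starts. The window of atx-2 held 3 IDR summits, and the gene kept a summit with the window cut to 500 bp upstream. Its strongest summit is shared with ecps-1, and the tbg-1 summit with rpac-19. Of the 10 related genes with no IDR summit, kin-10, which encodes the regulatory subunit of casein kinase 2, came closest with 44.4 in the pooled list, just under the IDR minimum of 46.4. The gamma-tubulin complex gene gip-2 also had no more than a weak peak, with a best summit of 9.0 at rank 29284 of the pooled list. The window of gtap-1 held no summit in the pooled list.

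**Figure D5:**
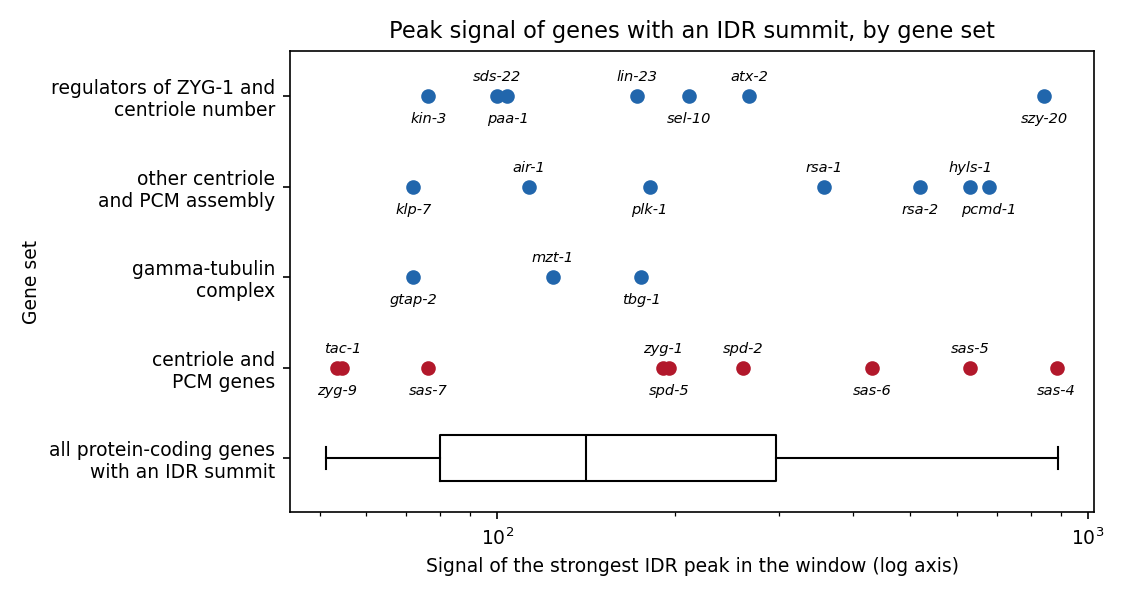
Signal of the strongest IDR peak (log axis) for each gene with one, for the 9 centriole and PCM genes (red) and 17 related genes in 3 lists (blue), above a box for all 3266 protein-coding genes with an IDR summit. The box spans the quartiles 79.9 and 296 with the median 141, and its whiskers run from the 5th to the 95th percentile; sas-4 (884) and szy-20 (842) are the highest points.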

How the data were processed

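Peak lists of chromatin immunoprecipitation sequencing were analysed for 2 biological replicates of 1 group. Per the labels and the deposited file listings, the relaxed peaks of each replicate and of both pooled were called against a control alignment, and an irreproducible discovery rate (IDR) list was derived from them. Caller and aligner were not given in the sources used here. Signal values are as deposited by the authors, on an unstated scale. The -log10 q deposited by the authors was the same for every IDR peak and was not used for ranking. No read counts are given, so depth is unknown. The peak start plus the deposited offset gave the summit, printed 1-based on ce11, and ranks run over nuclear chromosomes.

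Summits were matched to WBcel235, with Ensembl release 115, and no ce11 peak ran past the end of a chromosome of that assembly. A summit counted for each gene with a transcript start it lay within 1000 bp upstream to 200 bp downstream of. Word searches used RefSeq's WBcel235 sequence. The genes named are the 10 members and the 10 related genes with the highest IDR signal. Chosen after their values were seen were kin-10, gip-2, gtap-1, phf-5, ppm-1.D and F10E9.10. Genes sharing a summit with any of these were named too. The members and lists were chosen with earlier results of these data known, so no test was run. Window assignment was tested on simulated summits. Simulated E2F-type words were recovered by a separate search written for that check. The word search used for the results was not itself tested. Alternatives were other windows, starts and thresholds, either replicate alone, other distances, and ce10 ranks. Python 3.11.15 and numpy 2.4.6 were used.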

Additional observations from a re-analysis of the deposited data

How the results depend on the processing

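Of the 10 genes, 8 kept a summit among the 3369 strongest peaks of replicate 2 alone (background 16.1%), where tac-1 was lost, and 8 with replicate 1 alone (15.9%), where zyg-9 was lost. Counting each summit for the nearest start only left 6 (11.7%), without sas-4, sas-6 and tac-1. A window of 200 bp upstream and 100 bp downstream left 6 (7.61%). The most upstream start of each gene left 8 (15.5%), without spd-5, and the 1684 strongest IDR peaks left 6 (10.6%), without sas-7, tac-1 and zyg-9. The median signal per gene was 195 with the window reaching 1000 bp upstream and 225 in either shorter window, which leaves out the peaks of sas-4, spd-5 and tac-1. Summits in both replicates numbered 8 of 10 within 50 bp and 10 within 200 bp. E2F-type words were at 3 summits within 50 bp and 4 within 150 bp, and CHR-type words at 5 and 9. In the ce10 list, matched by chromosome, width, offset and signal within 1% with no conversion of coordinates, 6 summits had 1 candidate and the other 4, at sas-7, tac-1 and zyg-9, had 5 to 13. A match on signal nearly fixes the rank, so ranks there show nothing about stability. No paired analysis was possible because the labels give 1 group. The lists hold no read counts, so a weak or missing summit, as at gip-1, says nothing about signal below the minimum of the relaxed lists.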
